A study of Rattus norvegicus with 6 samples.

Results

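The sodium pump (Na,K-ATPase) is the enzyme of the basolateral membrane that exports sodium and imports potassium at the cost of ATP, and it drives sodium reabsorption along the whole renal tubule. Its catalytic alpha subunit is paired with a glycosylated beta subunit, which carries the enzyme to the cell surface, and small single-span FXYD proteins bind the complex and tune its affinity for ions. Described here are 7 rat genes of this system, the beta subunits Atp1b1, Atp1b2 and Atp1b3 and the regulators Fxyd1, Fxyd2, Fxyd4 and Fxyd5. They were taken as those probes whose RefSeq transcript belongs to 1 of the 7 genes. No measured value entered that rule, but the 7 genes were chosen with earlier results of these data known. Of 61537 probes on the array, 10 belonged to 6 of these genes, and 8 of the 10 were bright enough to be tested, at least 1 for each of the 6. In all, the array named 15645 genes through RefSeq. No probe carried a transcript that the RefSeq table gives for Fxyd4, the corticosteroid-induced FXYD protein of the collecting duct, so Fxyd4 has no value here; whether the array measures it under a transcript that the table does not pair with a gene was not settled.

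The renal cortex of 6 male Sprague-Dawley (Crl:CD(SD)) rats, bought at 5 weeks of age and kept on a basal diet, was measured with 1 Agilent one-colour array per rat. In the water group, 3 rats received water for 4 weeks. In the DPG group, 3 rats were dosed over the same time with 1000 mg/kg/day of the solvent dipropylene glycol (DPG). The comparison asks which transcripts of the cortex differ between them. Between 39556 (water 3) and 43184 (water 2) of the probes were well above background, and water 3 also had 34 spots with outlier flags, against 0 to 4 on the others. Markers of the cortex were well above background on every array, among them Slc34a1 of the proximal tubule and Slc12a3 of the distal tubule. The 3 water arrays lay on 1 slide and the 3 DPG arrays on another, so slide and group cannot be told apart. In whole tissue, fewer cells of a type and less RNA per cell cannot be told apart either. Signals below are log2 values relative to the 75th percentile of the same array, a scale on which 1 gene can be compared between arrays but not with another gene.

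All 6 measured members had a somewhat higher mean signal in the DPG rats, and none passed the test. The log2 fold changes lay between 0.12 (Fxyd2) and 0.28 (Atp1b2), with a median of 0.18, where the median of all 29647 features was 0.00 and 50.8% of them lay above 0. With limma, 0 of 6 members had an adjusted p under 0.05, as did 0% of all features, and the smallest adjusted p among members was 0.466. At an unadjusted p of 0.05, 0 of 6 members passed, against 12.4% of all features (6.68% higher and 5.70% lower in DPG). Averaged over the 6 genes, the shift from the water mean was 0.20, 0.16 and 0.19 in DPG 1 to 3 and -0.04, -0.01 and 0.05 in water 1 to 3. The members did not move in step on single arrays, as the values below show.

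**Figure D1:**
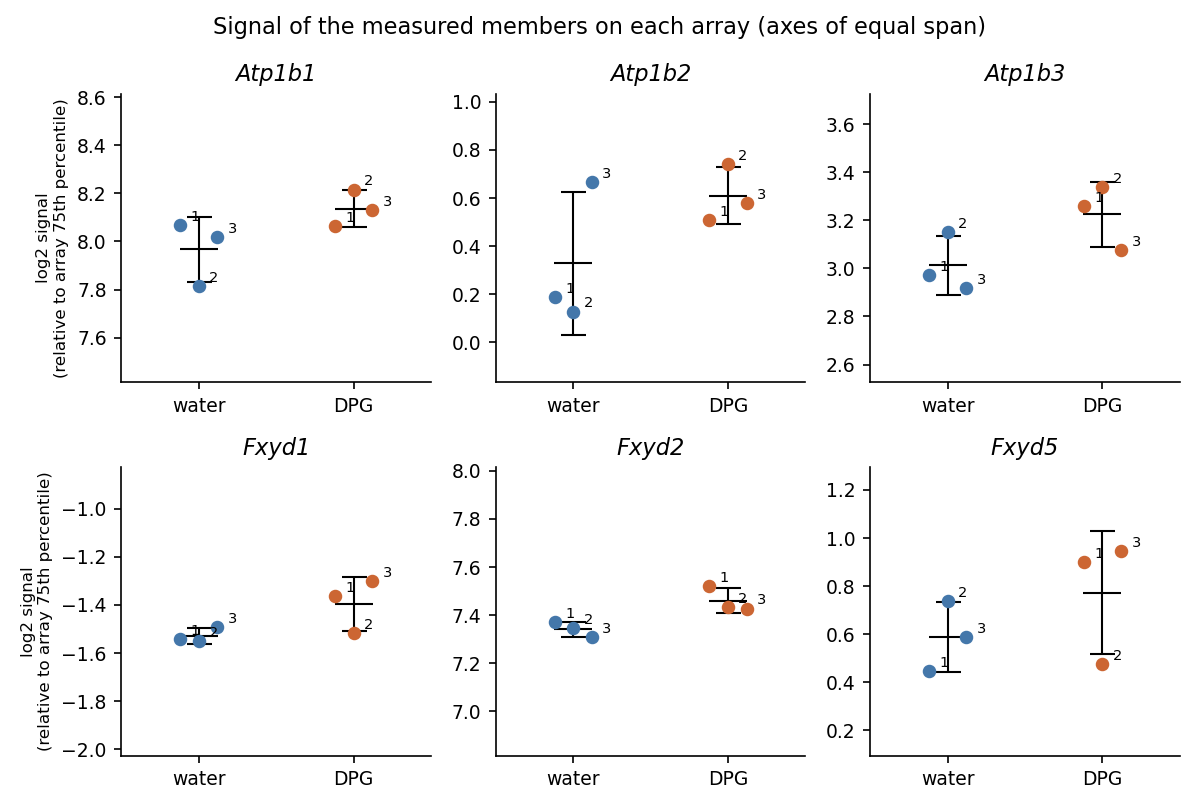
Log2 signal relative to the array's 75th percentile (y axis, the same span of 1.2 in each panel) of the 6 measured members on the 3 water and 3 DPG arrays; points carry the replicate number, and bars give the mean and SD. The groups are separate for Fxyd2 alone, and overlap for Atp1b1, Atp1b2, Atp1b3, Fxyd1 and Fxyd5.

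Atp1b1 encodes the main beta subunit of the pump along the nephron. Its single probe read 8.07, 7.81 and 8.02 in water 1 to 3 and 8.06, 8.22 and 8.13 in DPG 1 to 3. Water 2 was the lowest array and DPG 2 the highest, while water 1 lay level with DPG 1, so the groups overlapped. The means were 7.97 ± 0.13 and 8.14 ± 0.08 (SD, n = 3 each), a log2 fold change of 0.17 ± 0.09 with a limma adjusted p = 0.511. The 95% interval ran from 0.96-fold to 1.32-fold.

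Atp1b2 encodes the beta 2 subunit, known as an adhesion molecule on glia. The probe that was tested read 0.19, 0.13 and 0.67 in the water rats and 0.51, 0.74 and 0.58 in the DPG rats. Water 3, the array with the fewest probes above background, read higher than 2 of the 3 DPG arrays, and the other 2 water arrays lay below all of them. The log2 fold change was 0.28 ± 0.16 (limma adjusted p = 0.529), with an interval from 0.93-fold to 1.60-fold. Without water 3 it was 0.45 ± 0.10, with an unadjusted p = 0.00651 and an adjusted p = 0.343. That was the highest of its values with an array left out, and the lowest was 0.18 ± 0.17, without water 2. The second Atp1b2 probe was well above background on 1 array and the third on none, so this gene rests on 1 of 3 probes.

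Atp1b3 encodes the beta 3 subunit, which is expressed in many tissues. Its probe read 2.97, 3.15 and 2.92 in water 1 to 3 and 3.26, 3.34 and 3.08 in DPG 1 to 3. DPG 1 and DPG 2 lay above every water array, and DPG 3 lay inside the water range. The log2 fold change of 0.21 ± 0.10 had the smallest p of the members (unadjusted p = 0.0847, limma adjusted p = 0.466). Its interval ran from 0.97-fold to 1.38-fold.

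RefSeq promoters (build GRCr8) matched 5 of the 7 members, of which Atp1b2, Atp1b3, Fxyd1 and Fxyd5 were measured; Atp1b1 and Fxyd2 are not among them. The 250 bases before the start site of both matched beta subunit genes are shown because these genes had the largest log2 fold changes of the members and differ in promoter build. Capitals mark matches on either strand to the GC box GGGCGG, the CCAAT box CCAAT, the TATA box TATAAA, the cyclic AMP response element half-site TGACG and the steroid receptor half-site AGAACA. Atp1b2 lies at chr10:54823709-54823958 and Atp1b3 at chr8:105821152-105821401, both on the minus strand, and both sequences read 5′ to 3′ towards the gene.
Atp1b2: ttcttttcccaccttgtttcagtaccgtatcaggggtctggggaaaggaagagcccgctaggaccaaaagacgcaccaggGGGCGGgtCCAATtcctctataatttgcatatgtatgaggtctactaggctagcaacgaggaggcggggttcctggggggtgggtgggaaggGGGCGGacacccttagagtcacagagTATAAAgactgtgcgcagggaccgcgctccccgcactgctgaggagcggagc
Atp1b3: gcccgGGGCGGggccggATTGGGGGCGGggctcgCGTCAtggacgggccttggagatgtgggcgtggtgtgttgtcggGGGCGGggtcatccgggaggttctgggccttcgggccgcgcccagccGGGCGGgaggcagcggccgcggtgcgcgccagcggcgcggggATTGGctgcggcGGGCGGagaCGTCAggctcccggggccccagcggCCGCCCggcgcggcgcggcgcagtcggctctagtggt

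The Atp1b3 window was 79.6% G and C and held 6 GC boxes, 2 CCAAT boxes and 2 cyclic AMP half-sites, with no TATA box. The Atp1b2 window was 58.0% G and C and held 2 GC boxes, 1 CCAAT box and 1 TATA box, which ended 46 bases before the start site. Neither window held the steroid receptor half-site. No match to 1 motif overlapped a match to another. Of 33469 promoter windows of the same length, 30.5% held a GC box, 34.0% a CCAAT box, 12.9% a TATA box, 18.2% the cyclic AMP half-site and 17.5% the steroid half-site, and the median window was 51.2% G and C. A match describes the letters and is no evidence of binding.

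Fxyd2 encodes the gamma subunit, the main FXYD partner of the pump in the kidney, which lowers its affinity for sodium. Its brighter probe read 7.37, 7.35 and 7.31 in water 1 to 3 and 7.52, 7.43 and 7.43 in DPG 1 to 3. Every DPG array lay above every water array. Groups were separate in this way for 1 of the 6 members, and for 19.7% of all features (10.7% higher and 8.96% lower in DPG). The log2 fold change was small and tight, 0.12 ± 0.06 (limma adjusted p = 0.506), and its interval ran from 0.97-fold to 1.21-fold. The second probe read 6.36, 6.25 and 6.21 in water and 6.39, 6.31 and 6.31 in DPG. There the groups overlapped, and the log2 fold change was 0.06 ± 0.07.

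Fxyd1 encodes phospholemman, the FXYD protein of heart and skeletal muscle and a target of protein kinases. Its probe read -1.54, -1.55 and -1.49 in water 1 to 3 and -1.36, -1.52 and -1.30 in DPG 1 to 3. The water arrays agreed closely (SD 0.03), DPG 1 and DPG 3 lay above them, and DPG 2 lay among them. The log2 fold change was 0.13 ± 0.08 with a limma adjusted p = 0.541, and the interval ran from 0.96-fold to 1.25-fold. Without DPG 2 it was 0.20 ± 0.07 (unadjusted p = 0.0446, adjusted p = 0.520). That was the highest of its values with an array left out, and the lowest was 0.09 ± 0.08, without DPG 3.

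Fxyd5 encodes dysadherin, a FXYD protein with a long extracellular part that also affects cell adhesion. Its brighter probe read 0.45, 0.74 and 0.59 in water 1 to 3 and 0.90, 0.48 and 0.94 in DPG 1 to 3. DPG 1 and DPG 3 were the highest arrays, while DPG 2 was lower than 2 of the 3 water arrays. The log2 fold change was 0.18 ± 0.15 (limma adjusted p = 0.655), with an interval from 0.88-fold to 1.47-fold, and without DPG 2 it was 0.33 ± 0.11 (unadjusted p = 0.0302, adjusted p = 0.503). The value without DPG 2 was the highest with an array left out, and the lowest was 0.10 ± 0.16, without DPG 3. The second probe showed the same order of DPG 2 below DPG 1 and DPG 3, with -0.11, 0.11 and 0.03 in water and 0.35, -0.14 and 0.25 in DPG. Its log2 fold change was 0.15 ± 0.15.

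**Figure D2:**
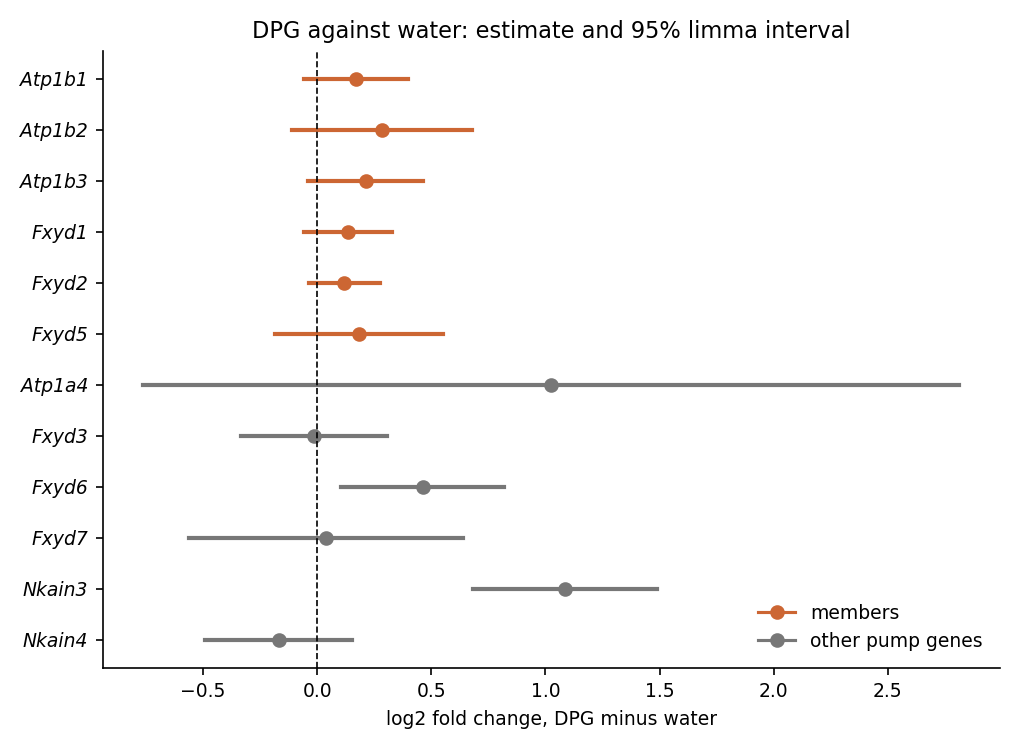
Log2 fold change, DPG minus water (x axis), with its 95% limma interval for the 6 measured members and 6 other pump genes. The interval of every member spans 0, and among the other pump genes shown those of Fxyd6 and Nkain3 do not. Fxyd6 is shown by its brighter probe, and its dimmer probe had a log2 fold change of -0.18, so no direction is given for it.

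On single arrays the members parted into different patterns. Over the 6 arrays Fxyd1 and Fxyd5 had a Pearson r of 0.83, and 0.80 for deviations from the group means. Atp1b1 and Atp1b2 had 0.73 (0.53 for deviations), while Atp1b1 and Fxyd5 had -0.16 (-0.77 for deviations). These values describe 6 arrays that share a slide within each group. Fxyd5 and Fxyd1 lie near each other in the rat genome, with Fxyd7 as the 1 protein-coding gene between them in RefSeq, and Fxyd2 lies directly beside Fxyd6. The promoters of Fxyd1 (chr1:95418581-95418830, minus strand) and Fxyd5 (chr1:95404723-95404972, minus strand) are shown because these genes ran closest among the members; marks and build are as above, and for Fxyd5 the first of its listed start sites was taken.
Fxyd1: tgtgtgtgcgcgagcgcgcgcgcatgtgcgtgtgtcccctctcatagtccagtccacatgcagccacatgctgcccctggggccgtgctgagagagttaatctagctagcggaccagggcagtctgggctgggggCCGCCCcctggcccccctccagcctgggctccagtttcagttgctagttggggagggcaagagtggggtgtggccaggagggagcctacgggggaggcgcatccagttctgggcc
Fxyd5: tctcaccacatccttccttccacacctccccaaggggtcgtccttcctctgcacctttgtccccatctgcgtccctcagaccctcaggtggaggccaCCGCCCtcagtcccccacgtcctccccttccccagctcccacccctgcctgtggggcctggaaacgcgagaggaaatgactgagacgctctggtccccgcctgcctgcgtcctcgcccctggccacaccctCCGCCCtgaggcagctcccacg

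The Fxyd1 window held 1 GC box and the Fxyd5 window 2, the nearer of which ended 16 bases before the start site. Neither held any of the other 4 motifs. They were 66.8% and 67.2% G and C.

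Leukocyte markers varied over the arrays in nearly the same way as Fxyd5, a gene that immune cells also express. Of 6 such markers, 5 were measured (Ptprc, Cd68, Cd3e, Cd74 and Lyz2) and Itgam was not. Their mean shift from the water mean was -0.12, 0.20 and -0.08 in water 1 to 3 and 0.32, -0.08 and 0.57 in DPG 1 to 3. Across the 6 arrays this shift had a Pearson r of 0.96 with Fxyd5 and 0.84 with Fxyd1, and 0.95 and 0.77 for deviations from the group means. It was the highest r of Fxyd5 among all marker lists compared, ahead of 2 adipocyte markers (0.84), and the list was singled out for that reason. For Fxyd1 a list of 5 intercalated cell markers had the r of largest size, -0.92 (-0.83 for deviations). All 5 of these had a lower mean in DPG, 3 of them (Slc26a4, Atp6v1g3 and Atp6v0d2) at an unadjusted p of 0.05, against 5.70% of all features, and 0 at an adjusted one in limma. Their summed linear signal, in units of the 75th percentile of the array, lay between 110.6 and 132.7 in water and between 92.6 and 108.9 in DPG. The summed signal of the 5 leukocyte markers lay between 101 and 123.5 in water and between 99.5 and 134.3 in DPG, so the groups overlapped. Of these 5, only Cd3e, the dimmest, had an unadjusted p under 0.05. The mean log2 fold change of the 5 was 0.27. It was 0.11 with only probes well above background on all arrays, which left 4 markers without Cd3e, and 0.15 with normexp. The r with Fxyd5 was then 0.95 and 0.94. The part of leukocytes in the Fxyd5 and Fxyd1 values was not tested.

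Markers of the tubule segments were read in the same way, and with limma 0 of them had an adjusted p under 0.05, so the counts here are at an unadjusted p of 0.05, where 6.68% of all features were higher and 5.70% lower in DPG. Of 5 thick ascending limb markers, 4 (Umod, Slc12a1, Cldn16 and Cldn10) were higher in DPG at that threshold, while Ptger3 (-0.19 ± 0.14) missed it. Their mean shift was 0.24, 0.39 and 0.28 in DPG 1 to 3 and -0.03, 0.06 and -0.04 in water 1 to 3. Their summed signal lay between 519.5 and 561.1 in water and between 628.2 and 679.1 in DPG, but Umod gave at least 92% of it. Without Umod, left out after the values were seen, the sum lay between 33.3 and 43.6 in water and between 50.3 and 52.6 in DPG. What remained was mostly Slc12a1, with a mean log2 signal of 4.97 in water, against 2.35 for Cldn10, the next brightest. The 6 markers listed for the medulla had mean shifts of 0.55, 0.48 and 0.35 in DPG, against -0.14, 0.13 and 0.01 in water. Of the 6, 3 (Aqp4, Slc6a12 and Cryab) were higher at the unadjusted threshold. Slc5a3 (0.59 ± 0.29), Akr1b1 (0.02 ± 0.13) and Slc14a2 (-0.15 ± 0.16) missed it. The summed signal of the 6 lay between 28 and 56.6 in water and between 98 and 142.8 in DPG, of which Cryab gave 73.6% to 91.2%. Without Cryab the sums overlapped, with 7.4 to 10.0 in water and 8.6 to 13.9 in DPG. The mean shift without Cryab did not, with 0.16 to 0.29 in DPG and -0.06 to 0.08 in water. The mean of the 4 measured markers of the straight proximal tubule shifted by 0.28 to 0.50 in DPG (water, -0.21 to 0.16). Slc22a7 (0.75 ± 0.23) and Slc7a13 (0.78 ± 0.16) were higher at the unadjusted threshold, while Kap (0.15 ± 0.07) and Slc5a1 (-0.12 ± 0.15) missed it. The mean of 5 markers of the convoluted part shifted by -0.31 to -0.14 (water, -0.08 to 0.10). All 5 were lower in DPG, 2 of them (Slc5a2 and Slc5a12) at that threshold. Principal cells, the site of Fxyd4, had 6 measured markers with a median log2 fold change of 0.01, 0 of them at the unadjusted threshold. Of 5 distal convoluted tubule markers 2 were measured, of which Wnk4 (-0.25 ± 0.08) was lower at that threshold and Slc12a3 (-0.02 ± 0.09) was not. Over the arrays the thick ascending limb shift had a Pearson r of 0.84 with Atp1b3 and 0.73 with Fxyd2, but 0.69 and -0.44 for deviations from the group means. The r of largest size for Atp1b3 was that with the convoluted proximal tubule, -0.89 (-0.78 for deviations). For Fxyd2 it was that with the medulla markers, 0.83 (0.22 for deviations). The part of the cells behind these marker lists in the member values was not tested.

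**Figure D3:**
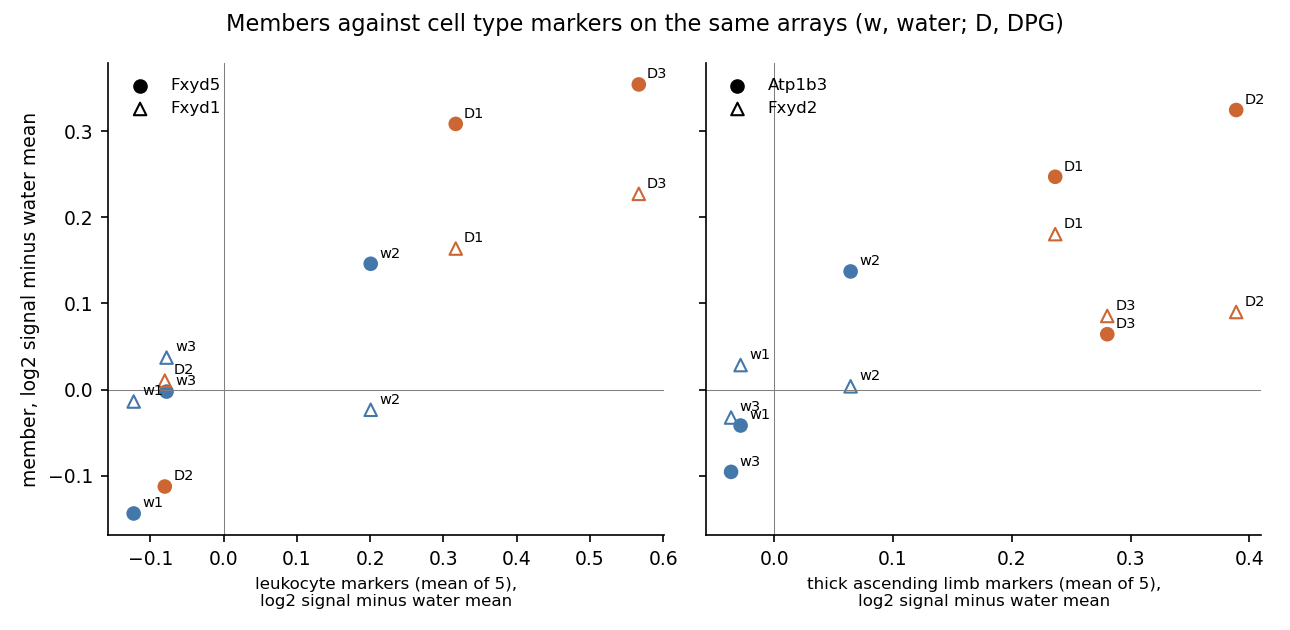
Log2 signal minus the water mean of Fxyd5 and Fxyd1 (y axis, left panel) against the mean shift of 5 leukocyte markers, and of Atp1b3 and Fxyd2 (right panel) against 5 thick ascending limb markers; each point is 1 array, blue for water and orange for DPG. Fxyd5 follows the leukocyte markers on all arrays, with DPG 2 beside the water arrays, while the thick ascending limb markers set the DPG arrays apart. Atp1b3 and Fxyd2 each had an r of larger size with another marker list.

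The other genes of the pump were read beside the members. Of 12 listed, 8 were measured. With limma 2 of these (Nkain3 and Fxyd6) had an unadjusted p under 0.05 on their brightest probe, and 0 an adjusted one. Of all features, 12.4% had an unadjusted p under 0.05 in either direction. The brightest probes of Nkain3 and Fxyd6 both read higher in DPG, but a second probe of Fxyd6 read lower.

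Fxyd6, a FXYD gene best known in the nervous system and the neighbour of Fxyd2, had 2 probes that disagreed. The brighter read 3.64, 4.16 and 3.96 in water and 4.35, 4.51 and 4.29 in DPG, so the groups did not overlap. Its log2 fold change was 0.46 ± 0.15 (unadjusted p = 0.0194, limma adjusted p = 0.333). The dimmer read -1.90, -1.90 and -2.08 in water and -2.13, -2.14 and -2.16 in DPG, a log2 fold change of -0.18 ± 0.07 with no overlap in the other direction. The mean of both probes gave 0.14 ± 0.09, so no direction is given for this gene. Without DPG 2 the brighter probe had an unadjusted p = 0.0642.

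Nkain3 belongs to a family of membrane proteins that interact with the beta 1 subunit. It read -4.82, -4.61 and -4.21 in water and -3.45, -3.36 and -3.57 in DPG, a dim signal that was still well above background on all 6 arrays. The DPG arrays lay well apart from the water arrays. The log2 fold change was 1.09 ± 0.16 (unadjusted p = 0.000596, limma adjusted p = 0.214), and it was 0.47 ± 0.09 with normexp background correction (adjusted p = 0.162). The 2 probes of Nkain4 had -0.17 ± 0.13 and 0.23 ± 0.17. Atp1a4, the alpha subunit of sperm, had 1.02 ± 0.73, with water 1, at -6.49, not well above background and the other arrays between -4.07 and -3.58. Without water 1 it was 0.15, and with normexp background correction 0.25. Fxyd7 had 0.04 ± 0.24 and Fxyd3 -0.01 ± 0.13, and the sign of each turned under other processing. The probe of Atp1b4 was well above background on 0 arrays and was not tested.

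Sodium reaches the pump through apical carriers and channels and leaves the proximal cell with bicarbonate at the basolateral side. All 9 listed genes of this kind were measured. In limma 1 of them was higher and 2 lower in DPG at an unadjusted p of 0.05, against 6.68% and 5.70% of all features. The median log2 fold change of the 9 was -0.02, and 0 passed the adjusted threshold. Slc12a1, the sodium-potassium-chloride cotransporter of the thick ascending limb, had 0.47 ± 0.13 (unadjusted p = 0.0117). Slc4a4, the basolateral sodium bicarbonate cotransporter of the proximal tubule, had -0.30 ± 0.10, and its 3 probes lay between -0.50 and -0.30. Slc5a2, the sodium glucose cotransporter of the convoluted proximal tubule, had -0.29 ± 0.10. It missed the unadjusted threshold without water 1 (-0.14), water 3 (-0.17) or DPG 2 (-0.24) and with normexp (-0.18). Slc4a4 missed it without water 1 (-0.28), water 3 (-0.29) or DPG 1 (-0.22), while Slc12a1 passed it in all 18 alternatives. All 3 had arrays that did not overlap between the groups, as did 19.7% of all features. The epithelial sodium channel subunit genes Scnn1a, Scnn1b and Scnn1g had 0.07 ± 0.11, 0.04 ± 0.10 and -0.03 ± 0.13.

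Potassium that the pump brings in leaves again through channels. Of 4 listed channel genes 3 were measured, and Kcnj10 was not. Kcnj15 read -0.08, -0.08 and -0.01 in water and -0.46, -0.60 and -0.22 in DPG, lower on every DPG array. Its log2 fold change was -0.37 ± 0.11 (unadjusted p = 0.0144, limma adjusted p = 0.317), and its second probe gave -0.43 ± 0.14. Kcnj16, a basolateral channel subunit, had -0.21 ± 0.13, and Kcnj1, the secretory channel ROMK, had 0.20 ± 0.12.

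Of 17 listed regulators of the pump and of its transcription or anchoring, 12 were measured, and 0 had an unadjusted p under 0.05 in limma, where 12.4% of all features did. Their median log2 fold change was -0.01. Ywhae, a 14-3-3 protein, had 0.10 ± 0.07, Hsd11b2, the enzyme that shields the aldosterone receptor from glucocorticoids, -0.17 ± 0.11, and the kinase gene Sgk2 -0.11 ± 0.14. Nr3c2, the aldosterone receptor, had 0.01 ± 0.20.

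Among 11918 other named genes, those whose 6 array values most resembled each member were picked by Pearson r, as a description only, since 6 arrays matched against so many genes give high values readily. For Atp1b1 these were Bicd2 (0.99), a dynein adaptor, and Hsph1 (0.99), a heat shock protein. For Atp1b2 they were Rbbp5 (0.99), a subunit of histone methyltransferase complexes, and the sulfotransferase gene Sult1c2a (0.99). For Atp1b3 they were Polr2g (0.99), a subunit of RNA polymerase II, and Nit1 (0.99). Fxyd2 was closest to the centrosome gene Cep43 (1.00) and to Csk (0.99), a kinase that restrains Src. Fxyd1 was closest to the interferon-induced gene Ifit3 (0.98) and to Hbs1l (0.98). Fxyd5 was closest to Ctse (1.00), which encodes the protease cathepsin E, and to Ift22 (1.00), a gene of cilium transport. Some of these values moved with the processing. With the mean of the probes of a gene, Fxyd1 and Ifit3 had 0.54, Atp1b2 and Rbbp5 0.80, Atp1b1 and Bicd2 0.81 and Fxyd1 and Hbs1l 0.87. With normexp, Atp1b3 and Polr2g had 0.76, Fxyd2 and Csk 0.76 and Fxyd1 and Hbs1l 0.82.

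**Figure D4:**
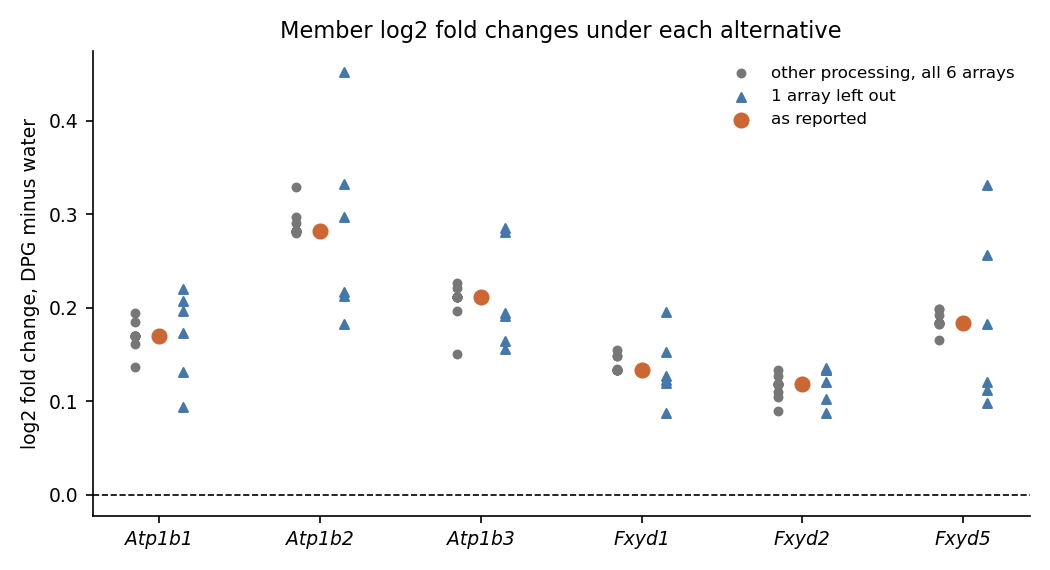
Log2 fold change of each measured member, DPG minus water (y axis), as reported (large orange points), under other processing of all 6 arrays (grey points) and with 1 array left out (blue triangles). All values lie above 0, between 0.09 and 0.45, and the widest spreads with an array left out are those of Atp1b2 and Fxyd5. The grey points include settings that cannot change the estimate, and the deposited table, which is scaled nearly as in the main fit.

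Each of the 6 members kept its sign in all 18 alternatives, and none reached an adjusted p under 0.05 in any of them. Some of these cannot change the estimate: the intensity trend with robust variance, the replicate block and the fit of every probe. The other filters and the kept outlier flags also returned the reported log2 fold changes. The deposited table, scaled nearly as in the main fit, returned almost the same ones, with 0.1692 against 0.1701 for Atp1b1. Agreement of sign in those settings adds nothing. The widest range was that of Atp1b2, from 0.18 to 0.45 with an array left out. Atp1b1 ran from 0.09 to 0.22, Atp1b3 from 0.16 to 0.29, Fxyd1 from 0.09 to 0.20, Fxyd2 from 0.09 to 0.14 and Fxyd5 from 0.10 to 0.33. A p that misses the threshold does not show equal levels, and the intervals above leave room for differences of up to 1.60-fold for Atp1b2 and 1.21-fold for Fxyd2.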

How the data were processed

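Total RNA of the renal cortex was labelled with Cy3 and hybridised to 1 one-colour Agilent array per rat, per the labels' protocols. The file headers name the scanner software as Agilent Feature Extraction 10.7.1.1, which the submitters' processing notes give as 10.7. The deposited intensity (processed signal) is background-subtracted and detrended within each array by the authors' software, on a linear scale and unscaled between arrays, per the file headers. A deposited table of scaled intensity holds the same 61537 probes, and among its values above 1 the ratio of processed signal to it was near constant within each array. Its column medians were 0.110, 0.111 and 0.114 for water 1 to 3 and 0.111, 0.108 and 0.112 for DPG 1 to 3. So that table is linear, without centring of genes, and runs the same way as the scanner values. The median ratio lay close to the 75th percentile of each array, with 930.77 against 929.8 in water 1 and 860.62 against 858.4 in DPG 3. The table is thus scaled nearly as in the main fit here, though its scaling steps are not given in the sources used here.

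From the log2 of the processed signal the 75th percentile of the array, over non-control probes, was subtracted. A probe was kept where either group had it well above background on all 3 arrays (40406 probes), and 23 with an outlier flag were dropped; 0 spots were saturated. Accessions were matched, without versions, to RefSeq genes of the assembly GRCr8: 28206 probes had 1 symbol and 33331 kept the file's identifier. The brightest kept probe stood for a gene. All 29647 features were fitted by lmFit and eBayes of limma 3.58.1 (R 4.3.3; two-sided tests, 4 residual and 1.95 prior degrees of freedom), with Benjamini-Hochberg adjustment. A value with ± is a log2 fold change of DPG over water with limma's standard error, unless SD is named; values of further probes of a gene come from the fit of every probe. Intervals are 95% limma intervals of 1 gene each.

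The alternatives were normexp background correction, median and quantile scaling, other filters and probe summaries, other variance models, array weights, the deposited table, each array left out and a block on the replicate number. Normexp used the median pixel signal, which the files hold in place of the mean. All members are described. Of each list of other genes, up to 3 with the smallest p were taken, and the 2 genes most like each member. Other genes of the pump, markers of lists that are described and a few further genes were named after their values were seen. Members and lists were chosen with earlier results of these data known. Single values of a few other listed genes are not reported here; counts over lists include them.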

Additional observations from a re-analysis of the deposited data

How the results depend on the processing

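The number of arrays limits every value. No feature passed the adjusted threshold in any alternative that used all 6 arrays; leaving out an array gave 0 to 1 (1 without water 2 and 1 without DPG 2). At an unadjusted p of 0.05, 3669 features passed, and 2569 to 3942 when an array was left out. Members past an unadjusted p of 0.05, against 0, numbered 1 (Fxyd2) with an intensity trend and robust variance. They ranged from 0 to 2 with an array left out, with Atp1b3 without water 2 or DPG 3, Atp1b2 without water 3, and Fxyd1 and Fxyd5 without DPG 2. Members whose groups did not overlap, against 1, numbered 2 with normexp, median or quantile scaling and ranged from 2 to 3 with an array left out, where fewer arrays can overlap. Near 0, Fxyd3 turned to 0.0247 with normexp, 0.0024 with median scaling and 0.0058 with quantile scaling, Nkain4 to 0.0285 with the mean of its probes and Fxyd7 to -0.0156 with array weights. With an array left out Fxyd3 ranged from -0.148 to 0.0662, Nkain4 from -0.258 to 0.0947, Fxyd7 from -0.146 to 0.256 and Sgk2 from -0.232 to 0.0243; the cause was not tested. With the replicate number as a block, 0 features passed the adjusted threshold and 2987 the unadjusted one, and no member was called. Deviations of arrays with the same number had an r of -0.02, -0.09 and -0.07, so they gave no sign that the numbers pair the rats. With 3 arrays per group, such values cannot exclude a pairing. A slide block could not be fitted, as each group lay on its own slide.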

Other observations

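Sgk1, which encodes a kinase that acts on sodium transport downstream of aldosterone, varied more within each group than between them. It read 2.95, 3.03 and 2.20 in water 1 to 3 and 3.36, 3.56 and 2.12 in DPG 1 to 3, so 1 array of each group lay well below the others. Its log2 fold change was 0.29 ± 0.43, and it was named after its values were seen. Slc9a3, the sodium hydrogen exchanger of the proximal tubule, read 0.30, 0.29 and -0.27 in DPG 1 to 3 and 0.09, 0.28 and -0.02 in water 1 to 3. Its other 2 probes had log2 fold changes of 0.07 ± 0.12 and -0.10 ± 0.12.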
